A study of Mus musculus with 12 samples.

Results

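Adenine-induced chronic kidney disease (CKD) was compared with control mouse kidney in 8 of the 12 bulk RNA-seq libraries of the series, chosen by their titles: 4 from CKD kidneys and 4 from control kidneys. The labels call the 4 libraries of a group biological replicates and place all 8 in batch 1. Every mouse was C57BL/6 and received saline by intraperitoneal injection. Control mice ate a normal diet, and CKD mice ate a diet with 2% adenine. The libraries of mice that also received colchicine were left out. The labels give no sex, age or time on the diet, and RNA came from kidney tissue with all of its cell types together.

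Adenine in excess is oxidised to a poorly soluble product that crystallises in the tubules, which makes the diet a widely used model of tubulointerstitial disease. The proximal tubule normally reabsorbs most of the filtered solutes, burns fatty acids for the purpose and makes glucose, while the distal segments set the final salt, acid, calcium and water content of the urine. Injured tubules are known to lose these functions and to switch on repair and adhesion genes, while fibroblasts lay down collagen and leukocytes enter the interstitium.

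Library totals lay between 22200909 and 31662883 counts. Scaling used TMM, the trimmed mean of log ratios between libraries, and levels are given as TMM-scaled counts per 1000000 (CPM). They do not correct for gene length, so levels are compared between libraries and not between genes. In bulk tissue, fewer cells of a type and less RNA per cell cannot be told apart, and this holds for each level below. Transcripts encoded by mitochondrial DNA took 46.7, 43.1, 43.1 and 41.5% of the counts in the control libraries and 16.7, 17.1, 17.3 and 16.8% in the CKD libraries. These groups were far apart (exact two-sided permutation p = 0.0286, the smallest that 70 arrangements allow). Among the other, nuclear counts, the number of genes that together held 50% was 724, 721, 773 and 781 in control and 1276, 1289, 1214 and 1233 in CKD (exact permutation p = 0.0286). Control kidney thus spent its nuclear counts on fewer genes. Libraries of a group resembled each other, with Spearman correlations across genes of 0.990 to 0.993 in control and 0.992 to 0.995 in CKD, against 0.861 to 0.879 between the groups. Markers of the main kidney cell types were present in all 8 libraries, while of 2 adrenal genes Cyp11b1 had 1 count in total and Star, also made outside the adrenal, ranged from 1.25 to 1.95 CPM in control and from 1.96 to 2.61 CPM in CKD.

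**Figure D1:**
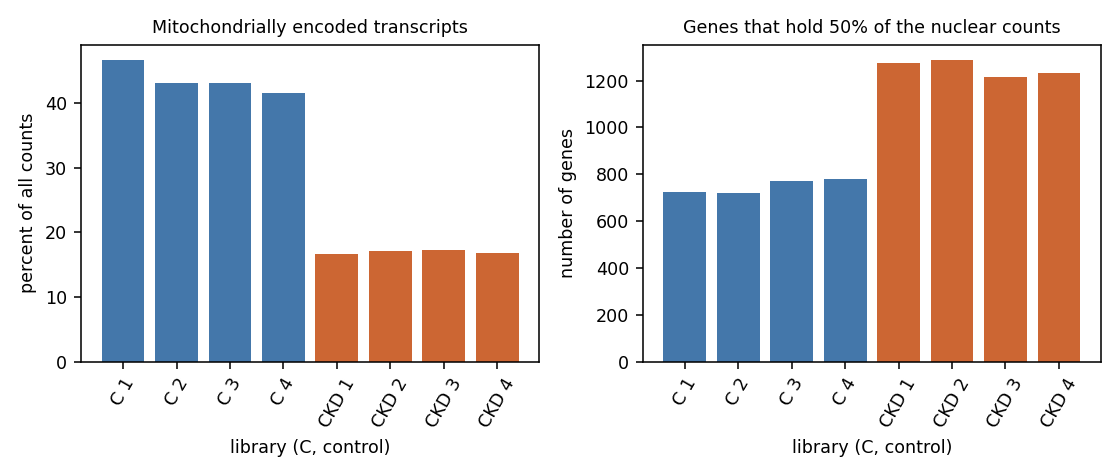
Left, the percentage of all counts from mitochondrially encoded transcripts in each library; right, the number of genes that hold 50% of the nuclear counts. Bars are single libraries (C, control, blue; CKD, orange): the mitochondrial share was 41.5 to 46.7% in control and 16.7 to 17.3% in CKD, and the nuclear counts were spread over 721 to 781 genes in control and 1214 to 1289 in CKD.

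Most of the genes tested differed between the groups. Of 16805 genes tested, 12392 (73.7%) were called by edgeR's quasi-likelihood test at a Benjamini-Hochberg adjusted p below 0.05. Of these, 6323 rose in CKD (37.6% of the genes tested) and 6069 fell (36.1%). At 2-fold or more, 3168 rose (18.9%) and 2631 fell (15.7%), and at 4-fold or more 1478 rose (8.8%) and 955 fell (5.68%). The 4 CKD libraries all stood above the 4 control libraries for 5905 genes (35.1%) and all below for 5706 (34%). The median size of a log2 fold change was 0.63, and 10% of genes passed 2.47. At the other end, 4922 genes (29.3%) had a 95% interval within 1.5-fold of no change. With calls this frequent, each group of genes below is read against 37.6% risen, 36.1% fallen and a median log2 fold change of 0.03 over all genes.

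The scale matters for moderate decreases. When libraries were divided by their total counts, mitochondrial transcripts included, the median log2 fold change of all genes moved from 0.03 to 1.02. Then 12877 genes rose and 1946 fell, so that 86.9% of calls were increases against 51.0% under TMM. Scaling by the upper quartile gave 7292 and 5286, or 58.0% increases. The directions below are therefore relative to the typical gene, and a gene that fell by less than about 2-fold stands higher in CKD as a share of all counts. Where its sign turns, the value under library totals is given beside a gene described as changed or not called. Counts under library totals are given for most groups. They are read against 12877 risen and 1946 fallen of 16805 genes on that scale, where most genes rose.

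**Figure D2:**
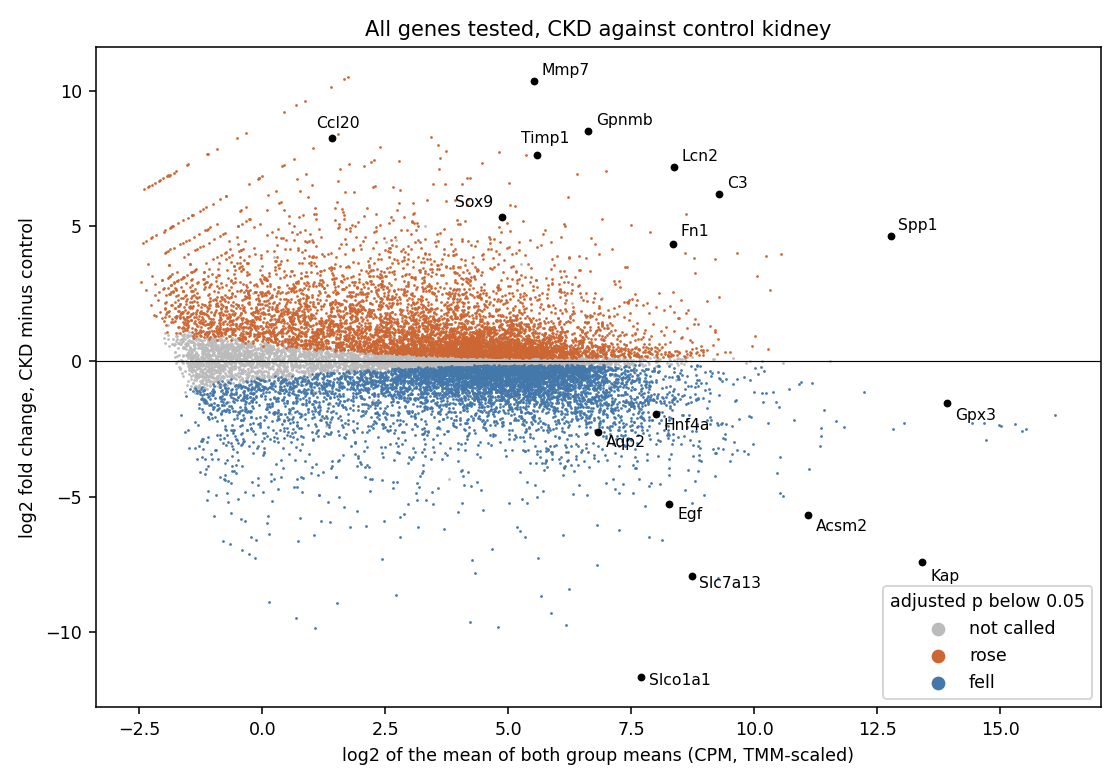
Each point is 1 of 16805 genes, with its mean level over both groups (log2 of TMM-scaled CPM) on the horizontal axis and its log2 fold change, CKD minus control, on the vertical axis. Orange points rose, blue points fell and grey points were not called. The most abundant genes lie mainly below 0, with Kap at -7.40 and Gpx3 at -1.54, while Spp1 stands alone among them at 4.64.

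The nuclear genes with the largest differences in level separated the groups without any overlap. Kap, the androgen-regulated kidney protein of the proximal tubule, stood at 21437, 23074, 21896 and 20429 CPM in control and at 102, 125, 141 and 146 CPM in CKD. Gpx3, which encodes the plasma glutathione peroxidase made by proximal tubules, went from 25066, 24669, 21968 and 20350 to 7511, 7298, 8946 and 7943 CPM. Kap fell by 21580 CPM and Gpx3 fell by 15089 CPM, more than any other nuclear gene, although several mitochondrially encoded transcripts lost more. The largest gain was that of Spp1, which encodes osteopontin, a secreted phosphoprotein that inhibits crystal growth and attracts macrophages. Spp1 stood at 578, 499, 509 and 561 CPM in control and at 12723, 12712, 15172 and 13104 CPM in CKD, a gain of 12891 CPM. Other large gains were those of apolipoprotein E (Apoe), up by 2613 CPM, clusterin (Clu), a secreted chaperone, by 2118, and biglycan (Bgn), a matrix proteoglycan, by 1860. Among genes with a mean of at least 100 CPM over the 8 libraries, the organic anion transporter gene Slco1a1 fell most: 291, 458, 425 and 484 CPM became 0.0939, 0.127, 0.160 and 0.104, a log2 fold change of -11.68 ± 0.26 (SE; edgeR adjusted p = 5.5e-12). It was followed by the acyl-CoA synthetase Acsm3 at -8.01 ± 0.42, the amino acid transporter Slc7a13 at -7.95 ± 0.28 and the fatty acid hydroxylase Cyp4a12a at -7.51 ± 0.23. These decreases stand at more than 100-fold. The labels give no sex, and whether the groups matched in it was not tested. Genes entered this ranking only if called and without overlap between the groups.

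At the luminal face of the proximal tubule, where sodium-coupled carriers take solutes back from the filtrate, 16 of 18 transporter genes fell and none rose, with a median log2 fold change of -2.24 (under library totals 14 fell and 3 rose). The glucose carrier gene Slc5a2 stood at 232, 241, 210 and 230 CPM in control and at 21.1, 18.1, 23.2 and 20.7 CPM in CKD (-3.46 ± 0.08, edgeR adjusted p = 7.5e-15). The phosphate carrier Slc34a3 fell from 22.9, 22.8, 22.3 and 23.3 CPM to 0.751, 0.664, 0.824 and 1.25 CPM. Both decreases leave a wide gap between the groups, although Slc34a3 was named by a rule that required no overlap. The exceptions were 2 carriers that were not called. Slc5a1, the glucose carrier of the late proximal tubule, stood at 71.7, 54.3, 56.6 and 56.9 CPM against 58.7, 56.2, 58.4 and 58.8, with a 95% interval of the log2 fold change from -0.21 to 0.12 (0.95 under library totals). Slc13a1, the sulfate carrier, stood at 239, 248, 244 and 297 CPM against 258, 217, 343 and 262, with an interval from -0.20 to 0.34. For both, the groups overlapped and the interval lay within 1.5-fold. So of the 2 glucose carriers only Slc5a2 was called, with no test of the difference between them, and the basolateral sulfate exchanger Slc26a1 fell by 3.59 while luminal Slc13a1 was not called.

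On the blood side of the same cells, 13 of 14 transporter genes fell (median -2.03; 12 under library totals). The organic anion and cation carriers that bring drugs and toxins into the cell were among them. Slc22a6 went from 862, 933, 847 and 817 CPM to 60.5, 58.5, 87.4 and 68.4, and Slc22a2 from 462, 431, 399 and 380 to 31.5, 29.7, 39.7 and 33.4. The member that rose, Abcc3, is an export pump: it stood at 1.75, 3.08, 2.49 and 2.88 CPM in control and at 17.1, 18.9, 16.4 and 18.7 in CKD (2.79 ± 0.14). Genes of uptake carriers and of this exporter therefore moved in opposite directions in all 8 libraries.

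Genes of protein reabsorption and of the brush border followed. Of 10 genes of receptor-mediated endocytosis, 9 fell and 1 rose (median -1.69; 5 fell and 2 rose under library totals). Lrp2, the multiligand receptor megalin, stood at 1001, 1045, 1011 and 1254 CPM in control and at 103, 82.9, 123 and 101 in CKD. All 12 brush border enzymes tested fell under TMM (median -2.20; 8 fell and 2 rose under library totals). The metalloprotease subunit genes Mep1b and Mep1a fell by 6.06 and 3.24, while Dpp4, a dipeptidyl peptidase of the same membrane, stood at -0.47 ± 0.08 under TMM and at 0.52 under library totals. The enzymes of this membrane thus ranged from a very large decrease to one whose sign depends on the scaling.

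Genes of amino acid metabolism fell with those of the transporters. Of 20 enzyme genes 17 fell and 2 rose (median -2.46; 14 fell and 4 rose under library totals). Ass1, which makes argininosuccinate for arginine synthesis, went from 2624, 2754, 2614 and 2754 CPM to 145, 134, 180 and 159. Hpd, a tyrosine-degrading dioxygenase, went from 38.1, 53.7, 41.1 and 43.0 CPM to 0.688, 1.27, 1.22 and 0.731. The mitochondrial arginase Arg2, which consumes arginine, rose from 4.72, 3.17, 4.19 and 4.09 to 40.3, 39.9, 40.6 and 39.4 CPM (3.31 ± 0.09). A gene of arginine synthesis was therefore lower, and one of arginine breakdown higher, in every CKD library.

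All 10 genes of gluconeogenesis and fructose handling fell (median -2.71; 9 under library totals). Fbp1, a committed enzyme of glucose synthesis, went from 799, 861, 794 and 893 CPM to 94.9, 79.1, 114 and 95.8. Pck1, which feeds the same path from oxaloacetate, fell least, from 1770, 1611, 1644 and 1691 to 620, 681, 884 and 793 CPM. Glycolysis was divided: of 17 genes 7 rose and 9 fell (median -0.21), and 11 rose and 4 fell under library totals. The entry enzyme Hk2 rose from 0.976, 3.44, 2.31 and 1.36 CPM to 17.0, 17.9, 18.2 and 17.3 (3.10 ± 0.27), the leukocyte hexokinase Hk3 rose by 4.18 and the lactate exporter Slc16a3 by 3.10. The core enzymes Tpi1, Gapdh and Ldha fell by 1.63, 1.15 and 1.02, and the more widely expressed hexokinase Hk1 was not called, with groups that overlapped.

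Of 17 genes of peroxisomal fat oxidation and ketone use, 16 fell (median -2.57, with 15 fallen under library totals). Amacr, a racemase that prepares branched acids for oxidation, stood at 390, 549, 475 and 415 CPM in control and at 18.7, 19.7, 21.4 and 21.1 in CKD. Ehhadh, the bifunctional peroxisomal enzyme, went from 657, 533, 499 and 616 to 30.2, 33.0, 43.2 and 42.1. Of 20 cytochrome P450, conjugation and related genes, 15 fell and 2 rose (median -2.26). Cyp4b1 fell from 2393, 3191, 2877 and 2891 to 89.2, 89.9, 106 and 103 CPM, while the dioxin-inducible Cyp1b1 rose from 36.1, 25.9, 23.1 and 33.2 to 115, 123, 120 and 94.8. For Ugt1a2 the increase was uneven, with 56.0 CPM in CKD replicate 3 against 19.01 to 23.9 in the others.

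The kynurenine path turns tryptophan into NAD. Among 14 tested genes of that path and of NAD use, 10 fell and 4 rose (median -1.30; 9 fell and 5 rose under library totals). Acmsd, which diverts an intermediate away from NAD, went from 172, 164, 130 and 150 CPM to 5.70, 3.23, 6.94 and 4.52 (-4.91 ± 0.22). Haao, the dioxygenase just before it, fell by 3.70, and Qprt, which commits the path to NAD, by 2.29. The NAD-consuming enzyme Cd38 rose from 13.5, 10.1, 12.1 and 10.4 to 42.0, 40.9, 45.3 and 39.5 CPM, and Nnmt, which methylates nicotinamide, rose by 1.91. The first enzyme of the path was at the edge of detection: Ido1 had 23 counts over the control libraries and 9 over the CKD libraries, too few to be tested.

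Transcription factors split by their known role. Of 19 factors of differentiated tubule, 15 fell and 2 rose (median -1.05), but 7 fell and 6 rose under library totals. Hnf4a, the master regulator of proximal tubule genes, stood at 380, 397, 417 and 435 CPM in control and at 103, 109, 113 and 94.7 in CKD (-1.96 ± 0.07, edgeR adjusted p = 9.6e-13). Emx1 fell by 2.08, while Ppargc1a, the coactivator of mitochondrial biogenesis, fell by 0.95 under TMM and stood at 0.04 under library totals. Of 20 factors of injury, repair and mesenchymal states, 19 rose and 1 fell (median 1.88; 20 rose under library totals). Sox9, an early marker of regenerating tubule, went from 1.44, 1.88, 1.52 and 0.757 CPM to 53.7, 57.0, 60.2 and 56.3 (5.33 ± 0.14). Runx1 went from 3.65, 2.19, 3.47 and 3.84 to 59.7, 59.4, 61.2 and 59.7. The developmental factor Pax2 was the member that fell, by 0.49 under TMM, and it stood at 0.51 under library totals, while its relative Pax8 rose by 0.42.

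**Figure D3:**
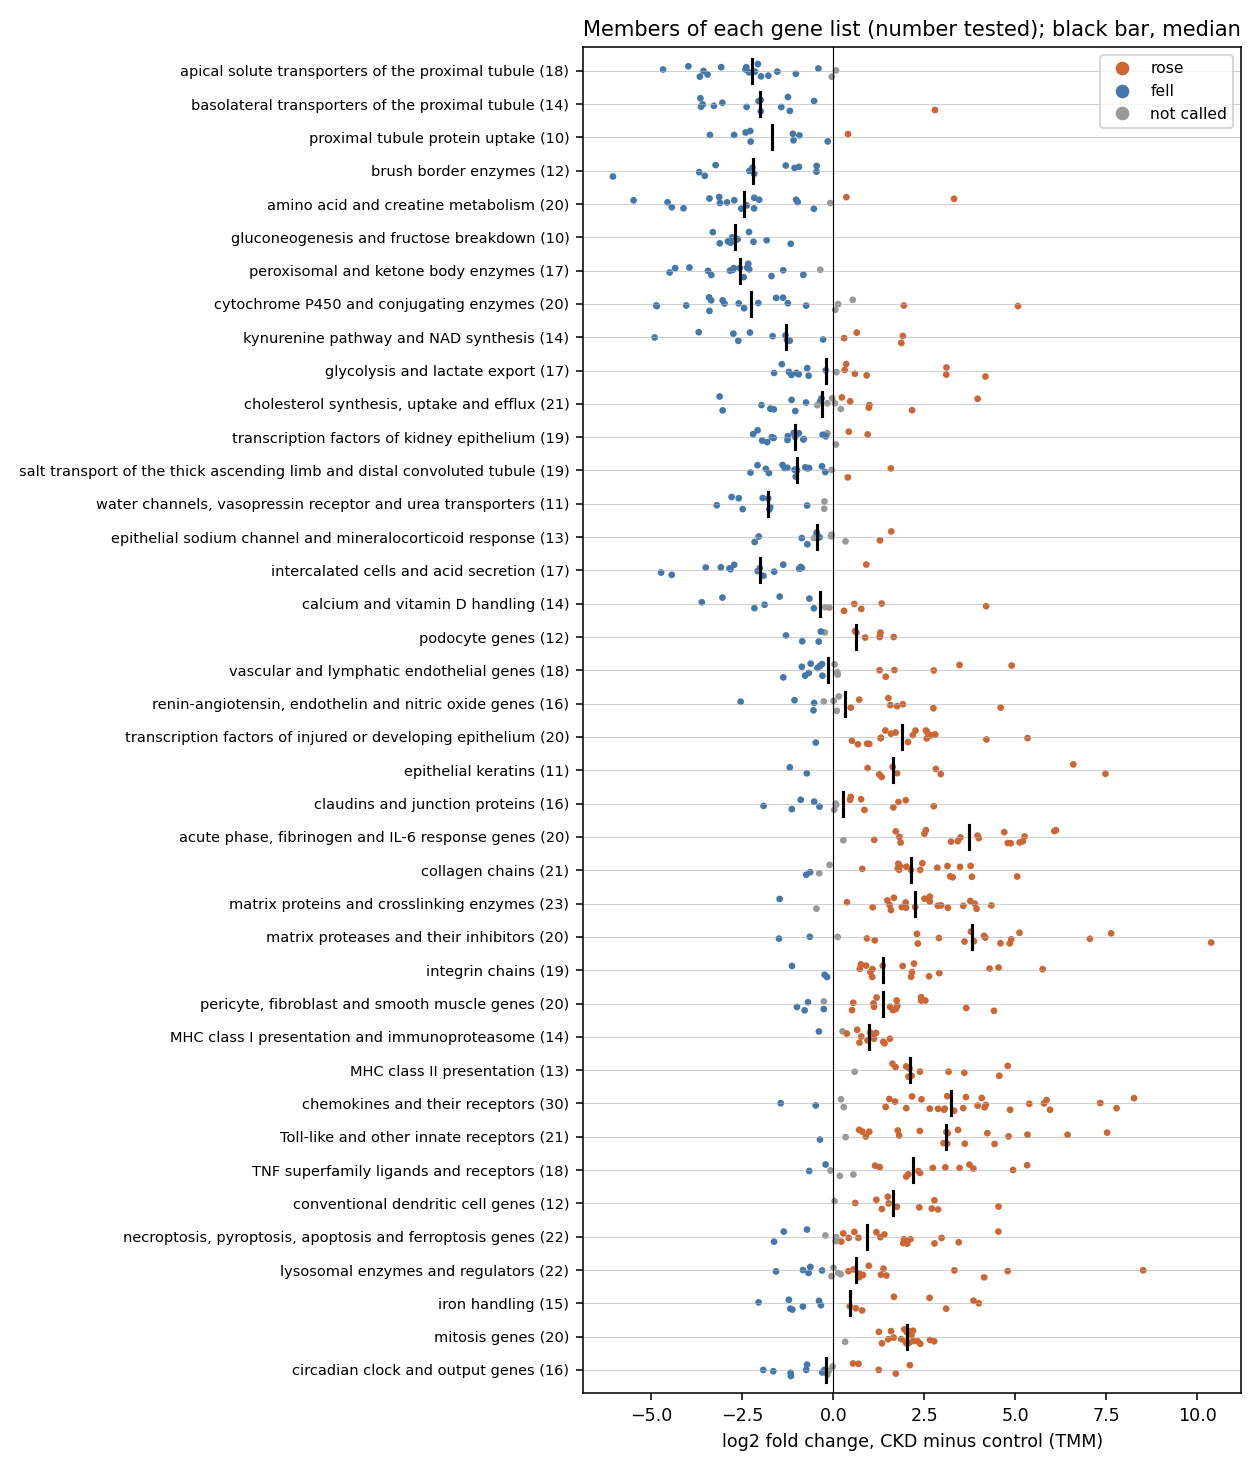
Log2 fold changes, CKD minus control (TMM), for the tested members of 40 gene groups, with 1 point per gene and the number tested in parentheses. Orange points rose, blue points fell, grey points were not called, and black bars are medians. The groups at the top, from luminal transporters down to the kynurenine path, have medians from -1.30 to -2.71. Transcription factors of kidney epithelium have a median of -1.05, and the groups of injury, matrix and immunity at the bottom lie mostly above 0.

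In the thick ascending limb and distal convoluted tubule, several decreases depended on the scaling. Of 19 genes of these segments, 16 fell and 2 rose (median -1.01), but 7 fell and 8 rose under library totals. Slc12a1, the salt carrier of the thick limb, stood at 660, 550, 688 and 729 CPM in control and at 237, 301, 242 and 217 in CKD. Klhl3, an adaptor that marks the WNK kinases for degradation, fell from 32.9, 35.7, 33.0 and 33.3 to 8.01, 7.37, 8.08 and 8.25 CPM (-2.09 ± 0.07). The magnesium channel Trpm6 rose from 7.91, 6.88, 5.84 and 6.56 to 19.8, 23.03, 20.6 and 17.9 CPM. Umod, the marker of the thick limb, stayed within 1.5-fold although it was called, at -0.22 under TMM and 0.77 under library totals, and its groups overlapped. Thick limb genes thus did not share a single fold change: the chloride channel subunit Bsnd fell by 1.86 beside Umod.

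Water channel genes of the collecting duct and proximal tubule fell. Of 11 genes of water and urea transport, 9 fell and none rose (median -1.79; 8 fell and 2 rose under library totals). Aqp2, the vasopressin-regulated channel of the collecting duct, stood at 244, 156, 196 and 183 CPM in control and at 32.1, 27.9, 27.4 and 40.7 in CKD (-2.60 ± 0.17). Its basolateral partner Aqp3 fell by 2.80, the intracellular channel Aqp11 by 3.20 and the proximal channel Aqp1 by 1.79. The urea carriers Slc14a1 and Slc14a2 were not called, at -0.25 for both (0.75 and 0.74 under library totals), and their groups overlapped. The sodium channel genes of the same duct moved little: Scnn1a stood at -0.38 (0.61 under library totals), and Scnn1b was not called at -0.05 (0.94 under library totals). The channel's activating protease gene Prss8 fell from 263, 243, 244 and 251 to 60.6, 60.2, 59.7 and 61.0 CPM. Of the 13 sodium channel and mineralocorticoid genes, 7 fell and 2 rose (median -0.46; 2 fell and 9 rose under library totals). The 2 that rose, Fkbp5 (1.59 ± 0.06) and Tsc22d3 (1.28 ± 0.17), are known glucocorticoid targets.

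Acid-base genes fell in 16 of 17 cases (median -2.02; 12 fell and 1 rose under library totals). The anion exchanger gene Slc4a1 stood at 48.3, 30.5, 41.0 and 37.8 CPM in control and at 1.38, 2.66, 1.41 and 1.83 in CKD (-4.44 ± 0.21). Slc4a1 is also made by red cell precursors, and 5 of 5 tested red cell genes fell, with summed levels of 156 to 463 CPM in control and 29.5 to 87.0 in CKD. Their part in the Slc4a1 decrease was not tested. The membrane carbonic anhydrase Car4 fell from 309, 278, 271 and 252 to 9.70, 10.6, 11.3 and 10.1 CPM, and the ammonia channel Rhbg by 2.86. The member that rose was Atp6v0d2, a proton pump subunit also known from macrophages and osteoclasts, from 52.2, 49.1, 50.7 and 49.9 to 85.2, 95.5, 104 and 92.4 CPM.

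Calcium handling genes were divided within 1 pathway. Calcium enters distal cells through Trpv5 and Trpv6, is carried by calbindins and leaves by pumps and exchangers. Trpv6 rose from 0.565, 0.491, 0.730 and 0.707 CPM to 12.0, 11.7, 10.9 and 10.9 (4.19 ± 0.15), and Trpv5 rose by 1.33. The carrier genes went the other way: S100g, calbindin-D9k, fell from 638, 614, 493 and 548 to 60.5, 66.2, 74.7 and 75.5 CPM, and Calb1 fell by 1.89. Genes of the entry channels were thus higher, and those of the intracellular carriers lower, in every CKD library. Among the hormone genes, the co-receptor Kl (klotho) fell from 529, 562, 536 and 649 to 43.2, 42.7, 55.5 and 44.1 CPM and the parathyroid hormone receptor Pth1r by 2.17. The vitamin D receptor Vdr went from 203, 198, 194 and 213 to 70.7, 74.4, 75.4 and 69.9 CPM. The enzymes that make and degrade active vitamin D were not called: Cyp27b1 stood at -0.22 ± 0.17 and Cyp24a1 at -0.11 ± 0.23 (0.78 and 0.86 under library totals). Each was called lower without 1 control library, Cyp27b1 without replicate 3 (-0.36) and Cyp24a1 without replicate 1 (-0.27). Over the 14 tested genes of this group 5 rose and 7 fell (median -0.38; 9 rose and 5 fell under library totals).

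The vasoactive genes gave another contrast. Endothelin-1 (Edn1), a constrictor peptide, rose from 2.16, 2.28, 1.88 and 1.41 CPM to 52.1, 45.9, 51.5 and 38.7 (4.59 ± 0.14), and its receptor Ednra rose by 2.75, while the receptor Ednrb was not called. Renin (Ren1) stood at 46.7, 54.5, 33.1 and 44.9 CPM in control and at 30.5, 42.0, 42.2 and 34.8 in CKD, with overlapping groups and no call (-0.26 ± 0.16; 0.73 under library totals); without control replicate 3, Ren1 was called lower at -0.37. The converting enzyme gene Ace fell by 2.55. Among the 16 vasoactive genes tested 8 rose and 4 fell (median 0.31; 14 rose and 1 fell under library totals). Hypoxia genes did not move as a block, with 4 of 13 risen and 7 fallen (median -0.14; 9 and 3 under library totals). Vegfa fell from 155, 189, 210 and 204 to 76.7, 85.8, 81.4 and 74.0 CPM, and Car9, a hypoxia-induced carbonic anhydrase, by 3.37. Epo had 1 count over the control libraries and 4 over the CKD libraries and could not be tested. Of 19 prostaglandin and leukotriene genes 11 rose and 6 fell (median 0.54; 16 and 1 under library totals). Hpgds, the prostaglandin D synthase of leukocytes, rose from 1.64, 2.37, 1.64 and 1.77 CPM to 23.8, 25.2, 22.8 and 19.6, while the inducible cyclooxygenase Ptgs2 was not called and its groups overlapped.

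Epithelial injury genes rose. Of 11 keratins 9 rose and 2 fell (median 1.63; 9 rose and none fell under library totals). Krt20, a keratin of injured tubule and of surface epithelia, went from 0.257, 1.25, 0.851 and 0.252 CPM to 55.4, 68.7, 64.1 and 69.2 (6.59 ± 0.27; 7.22 without control replicate 2). Krt19, a simple epithelial keratin, went from 10.6, 15.7, 18.4 and 11.1 to 104, 89.1, 95.3 and 102. Krt17, a stress keratin, had a single count in the 4 control libraries, in replicate 1, and 2.61 to 3.88 CPM in CKD, a ratio of 239 with a 95% counting interval from 42.7 to 9469. Urothelium also makes Krt5, Krt19 and Krt20, and none of its 5 uroplakin markers was called higher. Upk1a ranged from 4.14 to 9.42 CPM in control and from 1.68 to 5.56 in CKD, and Upk2 from 2.02 to 5.90 and from 0.285 to 2.45. Upk1b ranged from 3.80 to 7.82 and from 2.18 to 6.22. Upk3a reached higher in CKD, with 3.44 to 5.76 in control and 2.18 to 7.89 in CKD. Of 7 urothelial genes tested, 2 rose and 2 fell. Krt5 itself rose by 1.26, and the part of urothelium in the keratin values was not tested.

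Genes of the sealing proteins between the cells moved in both directions. Cldn10 and Cldn2, which form ion pores, fell by 1.92 and 1.14. Cldn1, Cldn3, Cldn4 and Cldn7 rose by 2.76, 1.65, 1.79 and 1.99. The levels of Cldn1 were 9.81, 13.2, 9.48 and 16.7 CPM in control and 79.5, 87.0, 86.2 and 81.0 in CKD. Over 16 tested junction genes 8 rose and 5 fell (median 0.27; 13 rose and 1 fell under library totals). Cdh1, the adhesion protein of all tubule segments but much of the proximal one, stayed within 1.5-fold at 169, 167, 178 and 182 CPM against 196, 174, 176 and 188. Genes of EGF family growth factors moved in opposite directions too. Egf, made by the distal tubule, fell from 593, 538, 600 and 687 CPM to 13.9, 17.8, 19.6 and 12.0 (-5.26 ± 0.16). Areg, which binds the same receptor, rose from 0, 0.0894, 0.0608 and 0.101 to 1.22, 1.17, 1.01 and 0.810 CPM, and Ereg rose by 2.87. Hbegf was not called, with groups that overlapped (-0.14 ± 0.24; 0.84 under library totals), and the receptor Egfr stayed within 1.5-fold. Of the 11 genes, 5 rose and 3 fell (median 0.13; 8 and 1 under library totals). Of 18 tested Wnt pathway genes 11 rose and 5 fell (median 0.46; 15 and none under library totals). Axin2, a general target of the pathway, rose from 4.93, 3.17, 4.19 and 3.53 CPM to 17.2, 15.7, 13.9 and 16.1, and the secreted protein Dkk3 rose by 2.87.

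**Figure D4:**
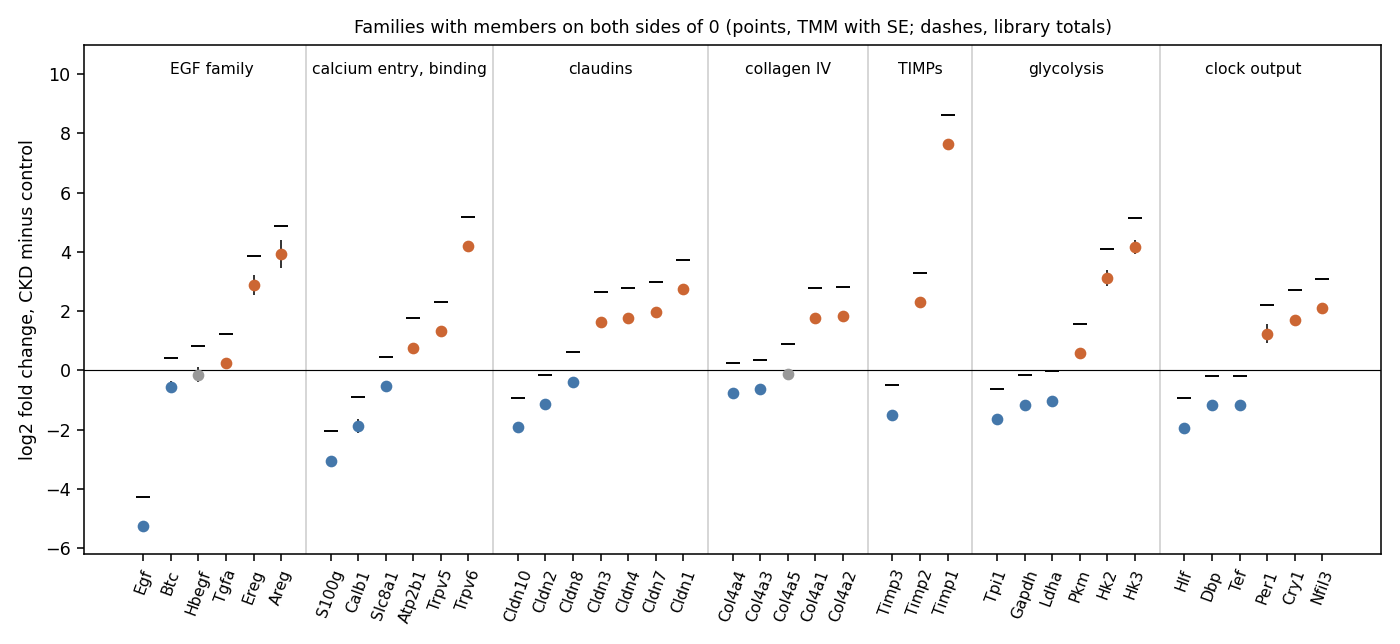
Log2 fold changes, CKD minus control, for members of 7 families with genes on both sides of 0. Points with SE bars are the TMM values (orange rose, blue fell, grey not called) and dashes the values under library totals. Egf (-5.26) and Areg (3.94), S100g (-3.05) and Trpv6 (4.19), and Timp3 (-1.50) and Timp1 (7.63) stay on opposite sides of 0 on both scales, while Btc, Hbegf, Slc8a1, Cldn8, Col4a3, Col4a4 and Col4a5 cross it.

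Acute phase and fibrinogen genes, best known from liver, were grouped with IL-6 response genes, and 19 of 20 tested rose (median 3.72, with 19 risen under library totals). Fibrinogen gamma (Fgg) went from 7.55, 5.18, 5.11 and 6.71 CPM to 207, 185, 296 and 250, and the protease inhibitor Serpina3n from 1.69, 2.55, 2.37 and 2.07 to 165, 124, 147 and 150. Ceruloplasmin (Cp), a copper oxidase that loads iron, went from 53.5, 41.2, 45.1 and 43.4 to 725, 707, 742 and 742. Among genes of a signalling chain known to induce acute phase genes, the ligand Lif rose by 4.79 and the receptor Osmr by 3.42. Stat3 rose by 1.84 and the feedback inhibitor Socs3 by 5.11. Their part in the acute phase increases was not tested. Orm1 was the tested member that was not called, with 0.202 to 1.25 CPM in control and 0.190 to 1.31 in CKD. Complement C3, outside this group, stood at 15.8, 21.98, 15.3 and 14.4 CPM in control and at 1240, 1144, 1271 and 1266 in CKD.

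Matrix genes rose broadly. Of 21 collagen genes 17 rose and 2 fell (median 2.13; 20 rose under library totals). Col1a1, of the fibrillar collagen of scar, stood at 99.1, 75.3, 73.8 and 74.96 CPM in control and at 1152, 1087, 1159 and 1006 in CKD (3.77 ± 0.10, edgeR adjusted p = 3.1e-14). The largest fold was that of Col12a1, which binds such fibrils, from 8.42, 8.53, 12.7 and 12.8 to 394, 335, 403 and 265 CPM (5.05 ± 0.21). The collagen IV chains of basement membranes differed from each other. Col4a1 and Col4a2, found in all basement membranes, rose by 1.78 and 1.82, while Col4a3 and Col4a4 of the glomerular membrane stood at -0.64 and -0.75 (0.35 and 0.24 under library totals). Of 23 genes of matrix assembly 21 rose and 1 fell on both scales (median 2.24). Fibronectin (Fn1) went from 35.5, 28.6, 25.4 and 33.4 CPM to 668, 635, 676 and 511, and the crosslinking oxidase Lox from 8.52, 5.81, 7.42 and 10.3 to 134, 113, 122 and 104. The laminin chain Lama1 of the tubule was the member that fell, by 1.48.

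Genes that break matrix down, and their inhibitors, rose as well. Of 20 tested proteases and inhibitors 17 rose and 2 fell (median 3.82; 19 and 1 under library totals). Matrilysin (Mmp7), an epithelial protease, had 0.154, 0, 0.122 and 0 CPM in control and 82.6, 101, 83.3 and 97.9 in CKD (10.38 ± 0.24; 11.22 without control replicate 1). The macrophage elastase Mmp12 stood at 1.54, 1.83, 2.31 and 1.97 CPM against 253, 259, 252 and 242. The inhibitors moved apart: Timp1 went from 0.668, 0.223, 0.365 and 0.656 to 105, 88.3, 98.8 and 87.4 CPM (7.63 ± 0.16), and Timp3, bound to the matrix of healthy kidney, fell from 1990, 1963, 1995 and 2281 to 739, 714, 752 and 712 (-1.50 ± 0.07). The collagenase Mmp13 stayed within 1.5-fold. The plasminogen activator Plau stood at -0.65 (0.34 under library totals).

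Of 20 mesenchymal genes 15 rose and 4 fell (median 1.37; 18 and none under library totals). Thy1, a fibroblast surface protein, went from 3.18, 3.35, 4.38 and 2.62 CPM to 74.6, 65.6, 80.6 and 64.8, and Pdgfrb rose by 1.72. The myofibroblast gene Acta2 rose by 1.10, while Myh11, of mature smooth muscle, stood at -0.70 (0.30 under library totals). Of 19 integrins 16 rose and 3 fell (median 1.35). The leukocyte chains led: Itgam stood at 1.49, 1.38, 1.22 and 1.01 CPM in control and at 68.1, 67.5, 74.3 and 66.0 in CKD. Fibroblast and leukocyte genes were therefore higher in the same 4 libraries.

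Endothelial genes gave no single direction: 6 of 18 rose and 9 fell (median -0.14), and 16 rose and 1 fell under library totals. Kdr, the VEGF receptor of capillaries, fell on both scales, from 59.4, 58.5, 60.01 and 65.0 CPM to 22.8, 24.5, 24.7 and 21.5 (-1.38 ± 0.07). The leukocyte-capturing Selp went from 0.359, 0, 0.243 and 0.252 to 6.45, 5.82, 8.11 and 4.65 CPM, and Pdpn, of lymphatics and activated fibroblasts, rose by 3.46. Pecam1, common to all endothelium, stood at -0.31 (0.68 under library totals). In the glomerulus, 7 of 12 genes rose and 4 fell (median 0.61; 10 and 1 under library totals). The slit diaphragm gene Nphs1 was not called, at 13.9, 13.05, 16.7 and 14.2 CPM against 10.9, 15.0, 11.8 and 11.2 (0.75 under library totals), but was called lower without control replicate 2 (-0.27) or CKD replicate 2 (-0.35), whereas the cytoskeletal gene Clic5 fell by 1.30.

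**Figure D5:**
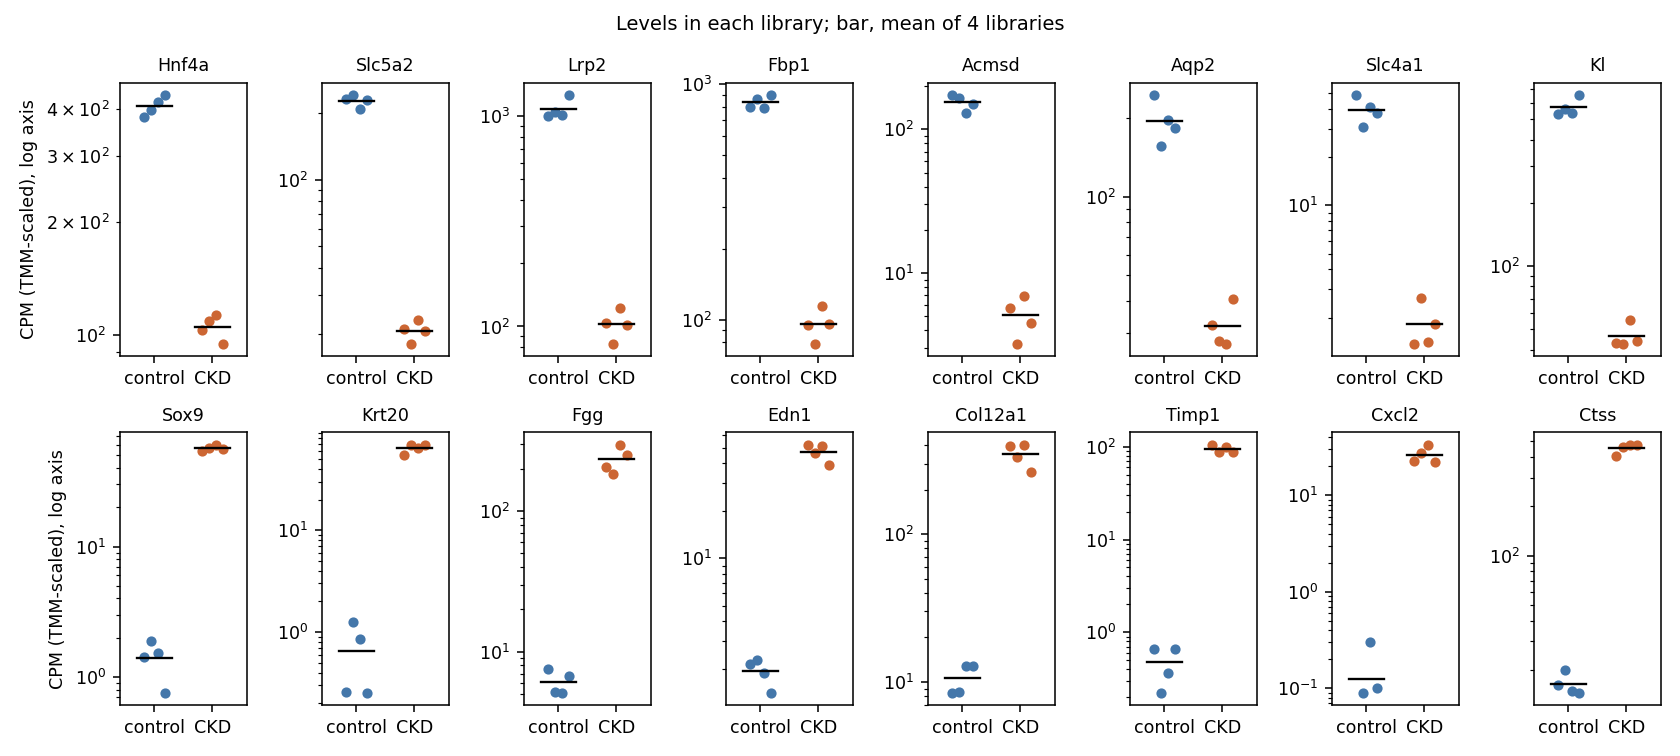
TMM-scaled CPM of 16 genes in each of the 4 control (blue) and 4 CKD (orange) libraries on log axes that differ between panels; bars are group means. The 8 genes of the top row, Hnf4a to Kl, were lower in every CKD library. The 8 of the bottom row, Sox9 to Ctss, were higher in every CKD library. Most of the 16 were named by rules that required no overlap between the groups. Cxcl2 had 0 CPM in control replicate 1, which a log axis cannot show.

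Chemokine genes rose broadly. Of 30 chemokines and receptors 26 rose and 2 fell (median 3.22; 29 rose under library totals). The neutrophil attractant Cxcl2 stood at 0, 0.0894, 0.304 and 0.101 CPM in control and at 22.8, 27.1, 33.4 and 21.99 in CKD (7.78 ± 0.32; 8.58 without control replicate 3). Cxcl5, which binds the same receptor, went from 0.359, 0.0447, 0.365 and 0.353 to 41.9, 44.8, 43.9 and 45.6 CPM, and that receptor, Cxcr2, rose by 5.38. Ccl20, which attracts cells with Ccr6, had 1 count in the control libraries, in replicate 3, and 3.69 to 7.02 CPM in CKD, a ratio of 416 (95% counting interval 74.4 to 16438). Cxcl9, an interferon-gamma target that attracts T cells, was not called at 2.88, 5.50, 3.89 and 3.48 CPM against 4.29, 7.40, 3.75 and 3.87. Cxcr6, a chemokine receptor gene of T cells, was not called either. Cxcl10, related to Cxcl9, rose by 1.54. Ccl28, a mucosal chemokine, fell by 1.45. So the neutrophil attractants were higher in every CKD library, while Cxcl9 and Cxcr6 overlapped between the groups. The leukocyte genes Itgam, Lyz2 and Mpeg1 rose in the same libraries, and their part in the chemokine and receptor values was not tested.

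The 250 bases before the start of Cxcl2 and Cxcl1, neighbouring genes that both rose, are shown because each holds 1 match to the NF-kappaB pattern, GGGA then any base then TTTCC, searched on both strands and given in capitals. They are from RefSeq on GRCm38.p6, chr5:90903649-90903898 and chr5:90890995-90891244, both on the plus strand, and the files themselves were made on another build.
Cxcl2: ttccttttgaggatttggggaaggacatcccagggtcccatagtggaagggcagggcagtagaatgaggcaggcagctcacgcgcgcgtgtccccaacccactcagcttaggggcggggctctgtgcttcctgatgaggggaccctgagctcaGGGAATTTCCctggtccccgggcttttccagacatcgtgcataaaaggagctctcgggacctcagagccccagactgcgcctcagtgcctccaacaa
Cxcl1: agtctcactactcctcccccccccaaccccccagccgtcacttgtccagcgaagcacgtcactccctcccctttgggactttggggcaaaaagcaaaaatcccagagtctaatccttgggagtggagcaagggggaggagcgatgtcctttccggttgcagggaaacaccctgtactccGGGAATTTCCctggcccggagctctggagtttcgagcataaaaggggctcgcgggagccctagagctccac
The match begins 97 bases before the start in Cxcl2 and 71 in Cxcl1. In the chemokine group 2 of 22 windows held the pattern, against 0.403% of 16389 windows of genes tested, 0.969% for genes that rose 4-fold or more and 0.890% for genes that fell 4-fold or more. A match describes letters only, and Cxcl1 itself rose by 3.06 ± 0.48, from 2.05, 4.20, 6.20 and 2.32 CPM to 20.2, 44.9, 36.9 and 19.3.

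Receptors of innate immunity rose in 19 of 21 cases (median 3.10; 21 under library totals). The C-type lectin receptor Clec4d went from 0.103, 0.134, 0.182 and 0.101 CPM to 22.4, 27.5, 25.1 and 22.2 (7.52 ± 0.18). Its neighbour Clec4e, which senses mycobacterial lipid and dead cells, rose by 6.43 (7.07 without control replicate 2). Tlr8 rose by 5.33 and Tlr13 by 4.42, sensors of RNA inside endosomes, while Tlr3, another RNA sensor that is also made by epithelia, rose by 0.89. Of 18 tested TNF family genes 13 rose and 2 fell (median 2.20). Tnf itself went from 0.205, 0.223, 0.243 and 0.0505 CPM to 4.13, 6.80, 5.66 and 5.85.

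Antigen presentation genes rose on both arms. Of 13 class II genes 12 rose and none fell (median 2.09), and of 14 class I genes 12 rose and 1 fell (median 0.97). The class II gene H2-Ab1 stood at 86.6, 105, 74.2 and 66.7 CPM in control and at 326, 389, 369 and 392 in CKD, and the lysosomal protease Ctss, which trims the class II chaperone, at 16.2, 20.1, 14.8 and 14.4 against 407, 460, 472 and 476. For class I, B2m rose from 366, 457, 312 and 316 to 767, 843, 814 and 841 CPM. Whether the arms differ was not tested. Dendritic cell genes rose in 11 of 12 cases (median 1.63), and Xcr1, of the cross-presenting subset, stood at 0.790 to 1.43 CPM in control and at 1.80 to 3.76 in CKD. B cell genes did not follow: 1 of 7 tested rose and 2 fell (median 0.11), and Ms4a1 and Cd79a overlapped between the groups, with Cd79a at -0.49 (0.50 under library totals). Siglecf, of eosinophils and some macrophages, had 3 counts in control and a ratio of 36.03 (95% counting interval 12.1 to 176).

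Cell division genes rose in 19 of 20 cases (median 2.01; 20 under library totals). Mki67, made in cycling cells, stood at 9.35, 6.88, 6.51 and 7.82 CPM in control and at 33.3, 37.0, 36.6 and 28.1 in CKD (2.14 ± 0.12). Top2a, the DNA-untangling topoisomerase, went from 3.39, 3.04, 2.68 and 3.03 to 14.7, 17.8, 17.8 and 13.4 CPM, and the mitotic kinase Cdk1 from 2.62, 1.25, 1.82 and 2.37 to 9.23, 9.08, 8.22 and 7.73. Cyclin D1 (Ccnd1) went the other way, at -0.88 (0.11 under library totals), and the cell cycle inhibitor Cdkn1a rose from 4.42, 5.50, 6.14 and 5.96 to 39.9, 39.0, 41.6 and 40.2 CPM.

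CCAAT boxes, which nuclear factor Y binds, are a known feature of mitotic gene promoters, and the 250 bases before the start of Top2a and Cdk1 are shown with their matches (CCAAT or, on the other strand, ATTGG) in capitals. Both lie on the minus strand of GRCm38.p6 in RefSeq, at chr11:99024190-99024439 and chr10:69352913-69353162.
Top2a: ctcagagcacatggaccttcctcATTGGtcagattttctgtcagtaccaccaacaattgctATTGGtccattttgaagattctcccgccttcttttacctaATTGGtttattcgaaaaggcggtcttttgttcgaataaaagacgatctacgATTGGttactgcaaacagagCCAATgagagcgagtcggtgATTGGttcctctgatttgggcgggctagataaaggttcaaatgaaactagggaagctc
Cdk1: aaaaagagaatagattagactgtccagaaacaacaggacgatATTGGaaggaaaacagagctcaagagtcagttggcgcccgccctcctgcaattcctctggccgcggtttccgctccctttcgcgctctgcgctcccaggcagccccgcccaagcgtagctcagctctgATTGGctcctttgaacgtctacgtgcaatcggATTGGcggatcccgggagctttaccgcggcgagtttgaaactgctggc
Top2a holds 6 matches and Cdk1 holds 3. In this group 16 of 18 windows held at least 1, or 88.9%, against 34.3% of windows of all genes tested, 29.7% for genes that rose 4-fold or more and 37.8% for genes that fell 4-fold or more. The pattern is short and frequent, and genes that rose 4-fold or more held it less often than those that fell as far, with no test of that difference. Patterns for HNF1 and the interferon response element were searched too. The HNF1 pattern was in 0 of 14 windows of the luminal transporters, against 0.299% for genes tested and 1.11% for genes that fell 4-fold or more. The interferon pattern was in 2 of 14 class I windows, against 2.72% for genes tested. These were B2m, which rose, and H2-T23, which fell under TMM.

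Programmed death genes rose in 16 of 22 cases and 3 fell (median 0.93; 19 and 2 under library totals). Ripk3, a kinase of necroptosis, went from 0.976, 0.536, 0.486 and 0.707 CPM to 5.95, 5.19, 5.51 and 4.78, and its substrate Mlkl rose by 1.92. Gsdmd, the pore protein of pyroptosis, rose from 3.59, 3.62, 3.10 and 3.58 to 13.9, 17.4, 14.6 and 14.6 CPM. Gpx4, which protects membranes from ferroptosis, fell from 351, 338, 312 and 272 to 99.4, 102, 102 and 108 (-1.63 ± 0.08), while Acsl4, which supplies the vulnerable lipids, rose by 1.29. The caspase inhibitor Birc3 rose by 2.78 and the survival gene Mcl1 by 1.18. The caspase Casp8 and Bcl2l1, a relative of Mcl1, stayed within 1.5-fold.

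Lipid and iron genes gave mixed directions. Of 21 cholesterol genes 6 rose and 10 fell (median -0.33; 13 and 6 under library totals). The synthesis enzymes Idi1 and Cyp51 fell by 3.13 and 3.04, and Idi1 stood at 144, 167, 135 and 171 CPM against 16.6, 17.0, 19.3 and 17.7. Of export genes, Abca1 rose from 24.4, 23.6, 25.5 and 31.0 to 121, 115, 116 and 116 CPM. Apoe rose from 219, 188, 162 and 147 to 2694, 2705, 2707 and 3063. Whether export and synthesis genes differ was not tested. Synthesis genes did not all fall: Fdps and Fdft1 stayed within 1.5-fold. Of 15 tested iron genes 8 rose and 7 fell (median 0.45; 10 and 3 under library totals). The transferrin receptor Tfrc fell by 2.06 and the ferritin chain Fth1 from 7107, 7094, 6314 and 5988 to 2785, 2984, 3198 and 3163 CPM, while transferrin (Trf) rose by 2.64. The macrophage iron pump Slc11a1 rose by 3.85. Among 22 lysosomal genes 13 rose and 5 fell (median 0.63; 20 and 1 under library totals), led by Gpnmb, a glycoprotein of lipid-laden macrophages, from 0.668, 0.491, 0.365 and 0.606 to 180, 210, 192 and 208 CPM. The macrophage genes Lyz2 and Mpeg1 rose by 5.46 and 4.34 in the same libraries, and their part in the lysosomal, Apoe and Hk3 increases was not tested.

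Clock genes were also divided. Of 16 clock genes 5 rose and 8 fell (median -0.21; 12 and 1 under library totals). The output factors Hlf, Dbp and Tef fell by 1.93, 1.18 and 1.17, and Dbp stood at 119, 126, 148 and 136 CPM in control and at 62.9, 57.2, 50.3 and 63.0 in CKD. Nfil3, which represses the same sites, rose from 3.29, 2.46, 2.92 and 3.68 to 12.9, 12.5, 14.7 and 12.8 CPM, and Cry1 rose by 1.71. Per1 was uneven within control, at 18.3, 19.4, 35.6 and 41.6 CPM, against 78.6, 64.7, 77.0 and 50.7 in CKD (1.24 ± 0.32). The core factors Clock, Npas2 and Per3 stayed within 1.5-fold, at -0.12, -0.02 and -0.17 (0.87, 0.97 and 0.82 under library totals). The labels give no time of day for tissue collection.

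Over all 52 groups, the 836 different genes listed comprised 802 tested ones, of which 398 rose, 309 fell and 95 were not called. For 103 of the 802 the 95% interval lay within 1.5-fold. These included the receptors Egfr and Erbb2, the junction proteins Ocln and F11r, the kinase Oxsr1 and the hypoxia factor Epas1; Oxsr1 and Epas1 stood at -0.05 and -0.14 (0.94 and 0.85 under library totals). Under TMM these receptors and junction proteins lay near their control level beside ligands and claudins that did not. Under library totals they lie higher by about as much as the median of all genes, which moved from 0.03 to 1.02.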

How the data were processed

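The 8 libraries were made with the CORALL RNA-seq V2 kit from RNA extracted with RNAiso Plus, per the labels' protocols. The deposited table holds whole numbers per gene symbol, taken here as rounded expected counts: the submitters' processing notes name fastp, STAR, Salmon and GRCm39, with no role, order or version. Counts were used as deposited. Genes passing edgeR's filterByExpr (minimum count 10) were fitted with edgeR 4.0.16 in R 4.3.3 by its robust quasi-likelihood test, with TMM scaling, the 8 libraries of both groups and no covariate. Adjusted p-values are Benjamini-Hochberg values over all 16805 genes tested, and a gene was called below 0.05. Groups came from the sample titles. The animals are not named, so a p-value here reflects spread among these libraries. The same replicate number in both groups names no shared source, and deviations of same-numbered libraries did not correlate positively throughout (r = -0.10, -0.09, 0.01 and -0.25). Counts of replicates differed by more than sampling noise, so no library was a copy or a repeat sequencing of another. Whether separate libraries shared an animal or RNA cannot be told from this check, because separate preparation can also exceed sampling noise. Intervals of count ratios cover counting error alone.

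The members and gene lists were chosen with earlier results of these data known. By rule, the genes named included the 12 highest and 12 lowest fold changes among genes of at least 100 CPM. They also included the 10 largest gains and losses in CPM, the 2 strongest members of each list and 30 fixed genes. The fold change and list rules admitted only called genes whose groups did not overlap. The list rule also asked for a mean count of 50 or more. Separation of the groups was thus a condition for genes named by these rules and is no separate result. Other list members named were chosen after their values were seen. Counts of 16805 genes were simulated with 66 or 67 genes changed at each fold size, in both directions. All other genes had the same level in both groups, and no scaling difference between libraries was simulated. Of the changed genes tested, 64.1% of 1.5-fold, 83.3% of 2-fold and 98.5% of 4-fold changes were recovered. Of unchanged genes, 0.0431% were called. These rates do not cover data in which 73.7% of genes are called and the scaling moves directions. Alternatives were other scalings, DESeq2 1.42.0, limma-voom (limma 3.58.1), other filters, a fit with all 12 libraries, a replicate block and leaving out each library. Promoter windows (250 bases, 12745 genes tested with a window) came from RefSeq on GRCm38.p6, matched by symbol; the counts were made on GRCm39, so no coordinates were combined. Results for some genes are not reported here.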

Additional observations from a re-analysis of the deposited data

Results flagged for a closer look

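Among 304 groups of 4 libraries examined for the genes named by rule, 15 (4.93%) had 1 library whose gap to the nearest other exceeded Dixon's critical value; chance gives about 1 in 20. All values are TMM-scaled CPM. In CKD replicate 2, Alox5ap, which activates leukotriene synthesis, stood at 32.3 against 28.9 to 29.3 in the other CKD libraries, and the water channel Aqp11 at 2.12 against 2.90 to 3.00. In CKD replicate 3, Spp1 stood at 15172 against 12712 to 13104, Kl at 55.5 against 42.7 to 44.1, and the conjugating enzyme Ugt1a2 at 56.0 against 19.01 to 23.9. Apoe stood at 3063 in CKD replicate 4 against 2694 to 2707, and the class II chaperone Cd74 at 903 in CKD replicate 1 against 1078 to 1098.

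In control replicate 1, Col1a1 stood at 99.1 against 73.8 to 75.3 in the other control libraries, and the injury marker Lcn2 at 6.98 against 3.43 to 3.98. The MHC class I regulator Nlrc5 was high in replicate 2 of both groups, at 5.90 against 2.19 to 2.22 in control and at 9.77 against 7.94 to 8.03 in CKD. Control replicate 2 also had the highest Klhl3, 35.7 against 32.9 to 33.3, and the highest Slc34a1, 4305 against 4071 to 4098. For Ccl20 (0.0608 in control replicate 3) and Krt17 (0.0513 in control replicate 1) the other control libraries were at 0, and each value is a single count.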

How the results depend on the processing

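Directions of moderate change rest on the scaling. Under library totals 12877 genes rose and 1946 fell, 8550 and 963 of them at 2-fold or more, and 1958 lay within 1.5-fold. Under totals of nuclear counts, a scaling chosen after seeing the data, 9562 rose and 3669 fell, with 1645 falls of 2-fold or more. Counts under RLE, upper quartile, TMM without mitochondrial transcripts, DESeq2, limma-voom, the other filters and the 12-library fit stayed within 1.5 times, and so did those without each replicate (6117 to 6525 rose, 5825 to 6006 fell). The fit with a replicate block gave 6110 rises and 5856 falls; samples share only a number, and 2 of the genes named by rule lost their call.

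These log2 fold changes turned positive under library totals and, second, under totals of nuclear counts: Cyp24a1 0.86 and 0.32, Cyp27b1 0.78 and 0.21, Hbegf 0.84 and 0.29, Nphs1 0.75 and 0.20, Pecam1 0.68 and 0.12, Ren1 0.73 and 0.17, Scnn1a 0.61 and 0.0540. Pax2 (0.51), Ppargc1a (0.0387) and Upk3b (0.27) did so under library totals only. Cyp24a1 was 0.0125 under the upper quartile. Leaving out 1 library gave a range from -0.27 to 0.0011 for Cyp24a1 (the latter without control replicate 4) and from -0.28 to 0.0652 for Hbegf (without control replicate 3). Library totals count the mitochondrial transcripts that differ between groups; for the single libraries the cause was not tested.

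Low control counts left 6 folds moving by over 1.5 times without 1 library: Ccl20 8.26 (10.26 without control replicate 3), Krt17 7.47 (9.46 without control replicate 1), Mmp7 10.38 (11.22, same library), Clec4e 6.43 (7.07 without control replicate 2), Krt20 6.59 (7.22, same library) and Cxcl2 7.78 (8.58 without control replicate 3). Calls were gained (edgeR adjusted p) by Cyp24a1 without control replicate 1 (0.0424), Cyp27b1 and Ren1 without control replicate 3 (0.0301 and 0.00999), and Nphs1 without control replicate 2 (0.0490) or CKD replicate 2 (0.00606). Upk3b lost its call without any 1 control library and without CKD replicate 2 or 3.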

Other observations

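Genes of motile cilia and of kidney development gave mixed values. Foxj1, the master factor of motile cilia, which healthy tubules lack, rose from 0.565, 0.179, 0.365 and 0.151 CPM to 11.2, 9.39, 11.04 and 9.32, with no overlap. Of 10 tested genes of this group 5 rose and none fell, but the axonemal motor Dnah5 was not called and its groups overlapped, and 4 of the 14 listed genes were too low to be tested. Of 15 tested genes of kidney development 6 rose and 5 fell (median 0.09), shares near those over all genes. Prom1 and Cd24a, markers of scattered tubule cells, rose by 1.88 and 1.56, while the growth factor Bmp7 fell by 1.84. Of 14 senescence genes 7 rose and 4 fell (median 0.21): Cdkn2a, an inhibitor of the cell cycle, stood at 0.154, 0, 0.182 and 0 CPM in control and at 0.595, 0.664, 0.399 and 0.548 in CKD, and the lysosomal galactosidase Glb1 fell by 1.58.

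Adipocyte genes were spread widely within the CKD group. Adipoq, a hormone of fat cells, stood at 10.01, 0.0633, 0.160 and 16.4 CPM in the 4 CKD libraries and at 5.13, 20.3, 10.8 and 7.32 in control, and Cfd, another fat cell product, at 32.5, 0.316, 1.06 and 34.3 against 27.0, 53.8, 44.4 and 23.6. None of 7 tested adipocyte genes was called. Of 7 urothelial genes 2 rose and 2 fell, among them Upk3b (-0.72; 0.27 under library totals). Upk1b was likewise highest in CKD replicates 1 and 4, at 5.13, 2.18, 2.39 and 6.22 CPM.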
